A study of Mus musculus with 10 samples.

Results

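The insulin-like growth factor (IGF) axis was followed through 8 genes, which were the ligands Igf1 and Igf2, the receptors Igf1r and Igf2r, and the binding proteins Igfbp2, Igfbp3, Igfbp4 and Igfbp5. The 8 genes were found among the 38924 gene identifiers of the count data by their Ensembl identifiers. The set was chosen with values of these samples in view, since Igf1 was selected on its rise in haematopoietic mesoderm, so the members' differences from that group are given as a description, without a test.

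The cells were differentiated from a mouse embryonic stem cell (mESC) line with a Foxa2-hCD4 allele, in which a truncated human CD4 (hCD4) on the cell surface marks cells that transcribe Foxa2. RNAseq was done on 10 sorted samples, all taken at day 5 of differentiation and all carrying that allele. Cardiac mesoderm (CM) was sorted as Pdgfra+ Kdr+ cells from the cardiac protocol, with BMP4, VEGF and 8 ng/ml Activin A, and was split by hCD4 into Foxa2+ CM (3 samples) and Foxa2- CM (3 samples). The 2 samples labelled Flk1+ high were Kdr-high, Pdgfra-negative cells from the same cardiac protocol and are the haematopoietic mesoderm of the study (Flk1 is another name of Kdr). The 2 endoderm samples were hCD4+ cells without Pdgfra or Kdr from an endoderm protocol with 75 ng/ml Activin A, so the endoderm differs from the other groups in its culture as well as its sort. All cultures were grown with supplements that are known to contain insulin, a hormone that shares signalling steps with the IGFs.

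IGF1 and IGF2 are small secreted hormones that drive the growth of embryonic tissues through the IGF1 receptor, a tyrosine kinase that signals through the IRS docking proteins, PI3K and Akt. The IGF2 receptor does not signal in this way but carries IGF2 to the lysosome, and the binding proteins hold the ligands outside the cell and either lengthen their life or keep them from the receptor. Igf2 and Igf2r are imprinted genes, Igf2 being read from the paternal and Igf2r from the maternal copy in most mouse tissues.

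Total counts on genes were 10926284 to 17470126 per sample, so that 3 counts, the smallest signal taken as detectable, correspond to 0.172 to 0.275 CPM, which are counts scaled to the size of the library. Replicate 3 of both CM groups stood apart in several markers, among them Tal1, a haemato-endothelial factor, which was at 112 and 101 CPM there and at 34.9 to 58.0 CPM in the other 4 CM samples. Foxa2 itself, a gate gene through hCD4, was at 20.01, 16.0 and 3.49 CPM in Foxa2+ CM, while it was at 2.54, 0.872 and 0.902 CPM in Foxa2- CM, so Foxa2+ CM replicate 3 was above the Foxa2- CM samples by a small margin. The 8 definitive endoderm markers summed to 1613 to 1662 CPM in endoderm and to 75.8 to 130.9 CPM over the other 8 samples. The 5 pluripotent markers were also highest in endoderm by their sum, at 375 to 380 CPM against 36.6 to 133 CPM elsewhere. Of these, Nanog, Sox2 and Pou5f1 were highest in endoderm, while Zfp42 and Dppa5a were lower there than in CM. The 14 haemato-endothelial markers summed to 1650 to 2004 CPM in Flk1+ high cells against 385 to 660 CPM in CM, with Hba-x, an embryonic globin, at 0 counts in every sample. The 9 cardiac mesoderm markers summed to 1075 to 1460 CPM in CM and 742 to 966 CPM in Flk1+ high cells, where Kdr, a gate gene, alone gave 554 and 592 CPM. Pdgfra, the other gate gene, was at 34.3 and 23.8 CPM in Flk1+ high cells and at 201 to 306 CPM in CM. In endoderm, sorted without Pdgfra or Kdr, Pdgfra RNA was at 49.9 and 71.5 CPM and Kdr RNA at 6.24 and 9.94 CPM. By some of these sums the CM groups also differed from each other. In Foxa2+ CM and Foxa2- CM, pluripotent markers summed to 55.5 to 62.7 and 90.1 to 133 CPM. Definitive endoderm markers summed to 96.9 to 130.9 and 75.8 to 83.2 CPM. Cardiac mesoderm markers summed to 1075 to 1280 and 1317 to 1460 CPM. The haemato-endothelial sums overlapped, at 494 to 660 and 385 to 646 CPM. The part of these differences in the member levels was not tested.

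The ligand Igf1 lies at chr10:87858265-87937042 (plus strand, mm10). Its counts in Foxa2+ CM were 0, 2 and 9, those in Foxa2- CM were 2, 1 and 56, and those in endoderm were 0 and 1. In the Flk1+ high samples there were 200 and 496 counts. On the CPM scale this is 0, 0.116 and 0.507 in Foxa2+ CM, 0.124, 0.0793 and 3.16 in Foxa2- CM, 0 and 0.0836 in endoderm, and 12.5 and 39.0 in Flk1+ high cells. The Flk1+ high samples were above all the others, and the level of both endoderm samples and of 4 of the 6 CM samples was under the limit of detection. Foxa2- CM replicate 3 held 56 of the 59 Igf1 counts of its group. The Flk1+ high samples themselves were far apart.

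Summed over samples, the Igf1 level in Flk1+ high cells was 107.6 times that of Foxa2+ CM and 19.1 times that of Foxa2- CM. Against endoderm, with a single count, the ratio was 551, with an exact 95% interval of 98.6 to 21800 that covers counting error only. These ratios describe the values that chose the gene and test nothing. The fitted log2 difference between Flk1+ high cells and Foxa2- CM was 4.43, and it was 7.83 without Foxa2- CM replicate 3. The difference from Foxa2+ CM was 6.80, and 8.47 without Foxa2+ CM replicate 3. In bulk RNA of this kind, more cells that express Igf1 and more Igf1 RNA per cell cannot be told apart.

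Of the 14 haemato-endothelial markers, 8 were highest among the CM samples in Foxa2- CM replicate 3, the CM sample with the most Igf1. They included Cdh5 (VE-cadherin), Tek (the angiopoietin receptor) and Pecam1, 3 endothelial genes named after their values were seen. Of the other 6, Tal1, Gata2 and Runx1 were highest in Foxa2+ CM replicate 3, Lmo2 and Etv2 in Foxa2+ CM replicate 1, and Hba-x was at 0. Cdh5 was at 4.53, 7.80 and 13.6 CPM in Foxa2+ CM, at 2.84, 1.98 and 43.4 CPM in Foxa2- CM, at 0.652 and 2.34 CPM in endoderm, and at 158 and 275 CPM in Flk1+ high cells. Tek was at 30.6 CPM in Foxa2- CM replicate 3 against 1.92 and 3.25 CPM in the other samples of the group, and Pecam1 was at 26.7 against 6.49 and 8.80 CPM. Between the Flk1+ high samples, 9 of the 14 markers were higher in replicate 2, which had the more Igf1, and 4 were lower (Lmo2, Gata1, Gata2 and Runx1). The whole list summed to 494, 511 and 660 CPM in Foxa2+ CM, to 385, 390 and 646 CPM in Foxa2- CM, to 48.7 and 97.3 CPM in endoderm, and to 1650 and 2004 CPM in Flk1+ high cells, so by its sum replicate 3 was highest in both CM groups. The part of these cells in the Igf1 level was not tested.

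**Figure D1:**
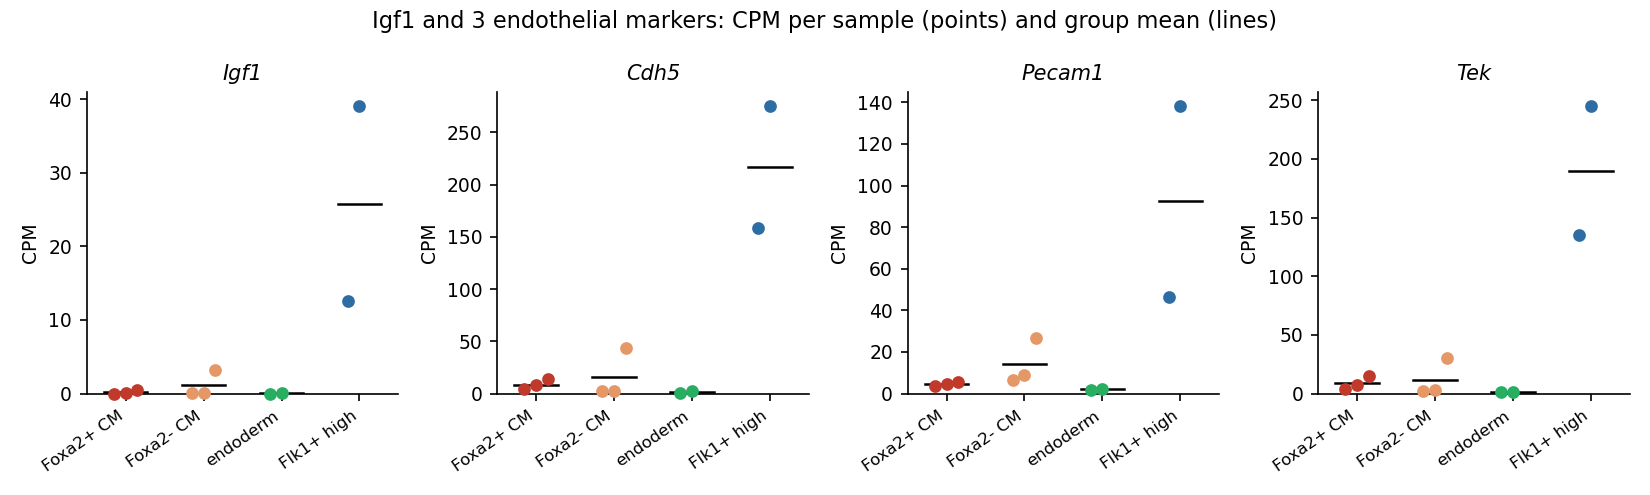
CPM of Igf1 and of the endothelial markers Cdh5, Pecam1 and Tek (vertical axes, linear) in each sample of the 4 sorted groups (horizontal axis), with points for samples and lines for group means. In each panel the Flk1+ high samples are highest, and in Foxa2- CM a single sample, replicate 3, lies above the other 2, with 3.16 CPM of Igf1 and 43.4 CPM of Cdh5.

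The genes whose pattern was most like Igf1 were chosen by the smallest root mean square difference of log2 CPM, each gene centred on its own mean over the 10 samples, among 12197 genes. They were Slc32a1 (0.60), Ctla2b (0.64) and Adora2a (0.65), on a scale where the standard deviation of Igf1 was 2.93. Slc32a1, a vesicular transporter of inhibitory transmitters, reached 17.5 and 18.6 CPM in Flk1+ high cells, 2.25 CPM in Foxa2- CM replicate 3 and at most 0.620 CPM in the other 7 samples. Adora2a, an adenosine receptor, reached 60.7 and 69.0 CPM in Flk1+ high cells and 6.09 CPM in Foxa2- CM replicate 3. Ctla2b reached 7.46 and 49.7 CPM in Flk1+ high cells and 6.09 CPM in Foxa2- CM replicate 3. All 3 genes were highest among CM samples in that same replicate. That sample entered the measure that chose them, so their peak there follows largely from the choice.

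Promoter windows of RefSeq (GRCm38.p6), from 250 bases before to 50 bases after an annotated start, are shown for 4 members: Igf1 as the gene that chose the set, Igfbp3 and Igfbp4 as the binding proteins with opposite differences in endoderm, and the second Igfbp2 window as a member with a TGTTTA match. They are written 5′ to 3′ on the strand of the gene. Capitals mark the core read by GATA factors (GATAG), part of the forkhead motif (TGTTTA) and the core of the TATA box (TATAAA), each searched on both strands.
Igf1, chr10:87860861-87861160, plus strand: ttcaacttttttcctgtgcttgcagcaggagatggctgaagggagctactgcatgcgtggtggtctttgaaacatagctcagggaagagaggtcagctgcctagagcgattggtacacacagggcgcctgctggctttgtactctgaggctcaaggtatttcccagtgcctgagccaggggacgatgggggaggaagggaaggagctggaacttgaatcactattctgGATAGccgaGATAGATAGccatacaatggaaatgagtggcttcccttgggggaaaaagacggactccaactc
Igfbp2, chr1:72825137-72825436, plus strand: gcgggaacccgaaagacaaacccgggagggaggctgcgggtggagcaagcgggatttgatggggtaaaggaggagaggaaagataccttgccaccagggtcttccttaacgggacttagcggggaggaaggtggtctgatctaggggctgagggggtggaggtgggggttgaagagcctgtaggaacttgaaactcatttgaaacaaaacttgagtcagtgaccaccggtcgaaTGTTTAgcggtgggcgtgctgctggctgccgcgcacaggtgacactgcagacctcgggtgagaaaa
Igfbp3, chr11:7213874-7214173, minus strand: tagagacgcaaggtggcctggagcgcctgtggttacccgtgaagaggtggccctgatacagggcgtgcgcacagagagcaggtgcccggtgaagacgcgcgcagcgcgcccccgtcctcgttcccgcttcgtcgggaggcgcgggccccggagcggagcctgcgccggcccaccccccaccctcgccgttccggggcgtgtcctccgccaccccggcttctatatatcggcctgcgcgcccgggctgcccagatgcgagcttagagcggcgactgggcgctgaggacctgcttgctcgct
Igfbp4, chr11:99040994-99041293, plus strand: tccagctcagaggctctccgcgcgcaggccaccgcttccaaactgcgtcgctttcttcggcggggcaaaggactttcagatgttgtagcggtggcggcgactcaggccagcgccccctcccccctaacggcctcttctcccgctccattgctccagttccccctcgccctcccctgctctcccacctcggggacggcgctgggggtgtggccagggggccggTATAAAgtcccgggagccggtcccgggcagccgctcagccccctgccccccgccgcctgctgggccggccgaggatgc

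The letters GATAG stood at 3 places in the Igf1 window, of which 2 share a base. GATAG was present in 23.3% of the 32544 distinct RefSeq promoter windows, and at 3 or more places in 0.45%. The first Igf2 window also held GATAG, at 1 place. Several motifs were searched in all member windows, so these shares are descriptions. The other form read by GATA factors, GATAA, which 25.3% of the windows held, was not found in the Igf1 window. The letters TGTTTA were in 13.4% of all windows, and TATAAA, found here in Igfbp4 only, in 13.6%. The Igf1 window held 6 CpG dinucleotides, beside a median of 7 over all windows. The 4 Igf2 windows held 2, 14, 24 and 7, the Igfbp2 windows 18 and 14 and the Igfbp5 window 10, and those of Igfbp4, Igf2r, Igfbp3 and Igf1r held 27, 34, 37 and 48. Matches are descriptions of the letters, and binding was not measured here.

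The second ligand, Igf2, lies at chr7:142650766-142666816 on the minus strand. It was at 106, 131 and 176 CPM in Foxa2+ CM, at 225, 295 and 279 CPM in Foxa2- CM, at 9.77 and 24.1 CPM in endoderm, and at 335 and 396 CPM in Flk1+ high cells. The 4 groups did not overlap and were ordered endoderm, Foxa2+ CM, Foxa2- CM, Flk1+ high.

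Igf2 differed in each of the tested comparisons. Foxa2+ CM held 138 ± 35.7 CPM (SD, n = 3) and Foxa2- CM 266 ± 36.6 CPM (SD, n = 3), a log2 difference of -0.95 ± 0.18 (SE) with an adjusted p of 0.0227 in the quasi-likelihood test of edgeR, adjusted by Benjamini-Hochberg as are all adjusted p-values here. In endoderm, at 17.0 ± 10.2 CPM (SD, n = 2), it was 8.06-fold lower than in Foxa2+ CM (log2 -3.01, adjusted p = 0.00021, edgeR) and 15.5-fold lower than in Foxa2- CM (log2 -3.96, adjusted p = 5.99e-05, edgeR). The CM call was lost without Foxa2+ CM replicate 1 (adjusted p = 0.0635, edgeR), without Foxa2+ CM replicate 2 (0.117) and without Foxa2- CM replicate 2 (0.11), with the sign kept. It was also lost when all 10 samples shared one estimate of the spread (adjusted p = 0.109).

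H19, the maternally read non-coding gene that shares enhancers with Igf2, starts 72.6 kb beyond the end of Igf2 on the same strand. It was at 102, 104 and 162 CPM in Foxa2+ CM and at 164, 202 and 190 CPM in Foxa2- CM. In endoderm the values were 26.3 and 61.2 CPM, and in Flk1+ high cells 193 and 260 CPM. The group means stood in the same order as for Igf2, with Foxa2- CM and Flk1+ high cells overlapping in range. The fall of H19 in endoderm passed the test against Foxa2+ CM (log2 -1.48, adjusted p = 0.00769, edgeR) and against Foxa2- CM (log2 -2.07, adjusted p = 0.00173, edgeR), while its CM difference did not. By the measure used for Igf1, H19 was 49th in likeness to Igf2 (0.75), behind C430049B03Rik (0.39), Exoc3l2 (0.45) and Scarf2 (0.47). Igf2 shares 98 exonic bases with the antisense gene Igf2os, which had up to 675 counts, and since the libraries did not mark strand, reads of that stretch cannot be assigned to either.

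**Figure D2:**
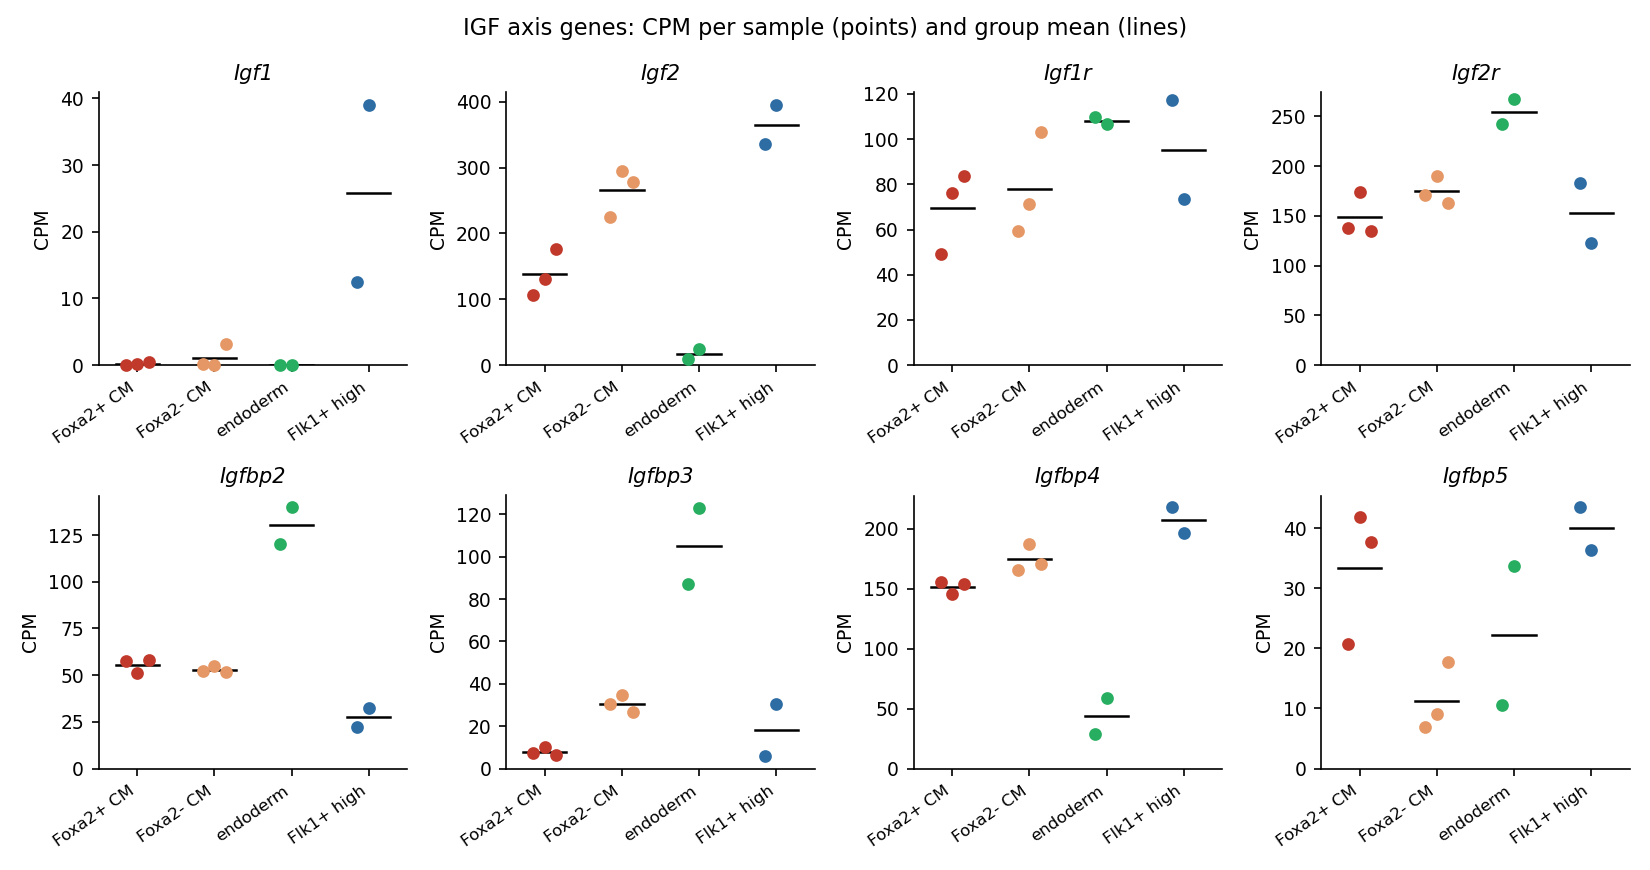
CPM of the 8 IGF axis genes (vertical axes, linear and different for each gene) in the samples of the 4 sorted groups (horizontal axes), with points for samples and lines for group means. Igf1 and Igf2 are highest in Flk1+ high cells, Igf2 and Igfbp4 are lowest in endoderm, with Igf2 at 9.77 and 24.1 CPM there, and Igfbp2 and Igfbp3 are highest in endoderm.

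Of the receptors, Igf1r (chr7:67952827-68233668, plus strand), which signals for both ligands, was detected in every sample. It was at 49.2, 76.1 and 83.7 CPM in Foxa2+ CM and at 59.5, 71.1 and 103 CPM in Foxa2- CM. The endoderm samples were at 110 and 107 CPM and the Flk1+ high samples at 117 and 73.3 CPM. The CM groups overlapped, and both endoderm samples were above all CM samples. No tested difference passed, with log2 values of -0.16 ± 0.24 (SE) between the CM groups (adjusted p = 0.839, edgeR), 0.63 ± 0.28 for endoderm over Foxa2+ CM (adjusted p = 0.111, edgeR) and 0.47 ± 0.28 over Foxa2- CM (adjusted p = 0.239, edgeR). In a fit of the endoderm and Foxa2+ CM samples alone, the first endoderm difference passed (adjusted p = 0.0382, edgeR).

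Igf2r (chr17:12682406-12769664, minus strand), the clearance receptor of IGF2, was at 138, 174 and 135 CPM in Foxa2+ CM and at 171, 190 and 163 CPM in Foxa2- CM. Endoderm held 242 and 267 CPM, and Flk1+ high cells 183 and 122 CPM. Both endoderm samples were above the other 8. Igf2r was 1.71-fold higher in endoderm than in Foxa2+ CM (log2 0.77 ± 0.16 SE, adjusted p = 0.00541, edgeR) and 1.46-fold higher than in Foxa2- CM (log2 0.54 ± 0.16 SE, adjusted p = 0.0321, edgeR). The latter call was lost when any sample of the 2 groups was left out. Between the CM groups the log2 difference of -0.23 ± 0.10 (SE) did not pass (adjusted p = 0.29, edgeR). It passed in a fit with the replicate number as a block, which is not a known pairing. The genes most like it were Crot (0.10), a peroxisomal acyltransferase, Neo1 (0.12), the netrin receptor neogenin, and Cdh24 (0.12).

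The binding proteins differed in opposite directions. Igfbp3 (chr11:7206086-7213923, minus strand), the main carrier of IGFs in the blood of adults, was at 7.52, 10.1 and 6.31 CPM in Foxa2+ CM and at 30.6, 34.5 and 26.8 CPM in Foxa2- CM. In endoderm the values were 87.2 and 123 CPM, and in Flk1+ high cells 6.14 and 30.4 CPM. The CM groups and endoderm did not overlap, and of the Flk1+ high samples replicate 1 was below Foxa2+ CM and replicate 2 within the range of Foxa2- CM.

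Foxa2+ CM, with 7.96 ± 1.91 CPM (SD, n = 3), was 3.83-fold lower in Igfbp3 than Foxa2- CM with 30.6 ± 3.86 CPM (SD, n = 3), a log2 difference of -1.94 ± 0.19 (SE) and an adjusted p of 0.00242 (edgeR). The call held when each CM sample was left out in turn, with log2 values between -1.79 and -2.16, and was lost in the model of all 10 samples (adjusted p = 0.0774, edgeR). Endoderm was 13.2-fold higher than Foxa2+ CM (log2 3.72 ± 0.51 SE, adjusted p = 0.000531, edgeR). It was 3.44-fold higher than Foxa2- CM (log2 1.78 ± 0.48 SE, adjusted p = 0.0196, edgeR), a call lost when any sample of the 2 groups was left out. Igfbp3 was most like Pde4b (0.62), a cyclic AMP phosphodiesterase, Lzts1 (0.63) and Dhrs3 (0.64), a retinaldehyde reductase, on a scale where its own standard deviation was 1.53.

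Igfbp4 (chr11:99041244-99054392, plus strand), a binding protein that mostly restrains IGF action and is cut by the protease PAPP-A, was at 156, 146 and 154 CPM in Foxa2+ CM and at 166, 187 and 171 CPM in Foxa2- CM. The endoderm samples were at 28.9 and 59.0 CPM and the Flk1+ high samples at 218 and 197 CPM. The 4 groups did not overlap and stood in the order of Igf2. Endoderm was 3.44-fold lower than Foxa2+ CM (log2 -1.78 ± 0.23 SE, adjusted p = 0.000394, edgeR) and 3.96-fold lower than Foxa2- CM (log2 -1.98 ± 0.23 SE, adjusted p = 0.000266, edgeR). The CM difference, -0.20 ± 0.07 (SE) on the log2 scale, did not pass although the samples of the groups did not overlap (adjusted p = 0.134, edgeR). Tgfb1 (0.19), a secreted growth factor, Rhob (0.23), a small GTPase, and Siah2 (0.26), a ubiquitin ligase, were most like Igfbp4, and H19 was 7th (0.29).

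Igfbp2 (chr1:72824503-72852474, plus strand), a binding protein abundant in embryos, was at 57.8, 51.2 and 58.0 CPM in Foxa2+ CM and at 52.3, 54.8 and 51.6 CPM in Foxa2- CM. Endoderm held 120 and 140 CPM, and Flk1+ high cells 22.5 and 32.5 CPM. The CM groups overlapped, endoderm was above them and Flk1+ high cells below. Endoderm was 2.34-fold higher than Foxa2+ CM (log2 1.23 ± 0.14 SE, adjusted p = 0.000179, edgeR) and 2.46-fold higher than Foxa2- CM (log2 1.30 ± 0.14 SE, adjusted p = 0.00015, edgeR). Between the CM groups the log2 difference was 0.08 ± 0.07 (SE), with an adjusted p of 0.713 (edgeR). Igfbp2 was most like Mycl (0.14), a MYC family gene, Nnat (0.23), the imprinted gene of neuronatin, and Fat3 (0.24), an atypical cadherin.

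Igfbp5 (chr1:72857932-72874884, minus strand) lies 5.5 kb from Igfbp2, tail to tail, and did not share its pattern of levels. It binds IGFs and the extracellular matrix. It was at 20.8, 41.8 and 37.7 CPM in Foxa2+ CM and at 6.99, 9.04 and 17.7 CPM in Foxa2- CM. In endoderm the values were 10.6 and 33.8 CPM, and in Flk1+ high cells 43.6 and 36.3 CPM. All Foxa2+ CM samples were above all Foxa2- CM samples, and the endoderm samples were far apart. The CM difference of 1.56 ± 0.38 (SE) on the log2 scale just missed the threshold (adjusted p = 0.0509, edgeR). It passed without Foxa2- CM replicate 3 (log2 2.08, adjusted p = 0.00181, edgeR), with DESeq2 (adjusted p = 0.0304) and without a filter on low counts (adjusted p = 0.011, edgeR). The Igfbp5 difference also passed with the replicate number as a block. Neither endoderm difference passed, at -0.59 ± 0.51 (SE) against Foxa2+ CM (adjusted p = 0.403, edgeR) and 0.98 ± 0.51 against Foxa2- CM (adjusted p = 0.181, edgeR).

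Counted over the set, 7 of the 8 members could be tested between the CM groups, since Igf1 did not pass the filter on low counts. None rose and 2 fell in Foxa2+ CM by edgeR (Igf2 and Igfbp3), where 3.81% of the 15284 genes tested were called higher and 2.66% lower. At an unadjusted p under 0.05, and also by DESeq2 with adjustment, Igfbp5 was the only member higher in Foxa2+ CM. Without replicate 3 of both CM groups, a setting chosen after seeing the data, Igf2 (log2 -1.12), Igfbp3 (-1.86) and Igfbp5 (2.00) passed. The median log2 difference of the 7 was -0.20, beside -0.001 over all genes tested. In endoderm against Foxa2+ CM, 3 members were higher and 2 lower, where 18.3% of 16180 genes were called higher and 16.7% lower. Against Foxa2- CM the same members, Igf2r, Igfbp2 and Igfbp3, were higher and Igf2 and Igfbp4 lower, where 16.1% and 14.0% of the genes were called. Igf1 passed the filter of the 10-sample model only through the Flk1+ high samples, and with 0 and 1 counts in endoderm its tests there are not reported. The endoderm comparisons share the endoderm samples, and the CM comparison shares its samples with both.

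**Figure D3:**
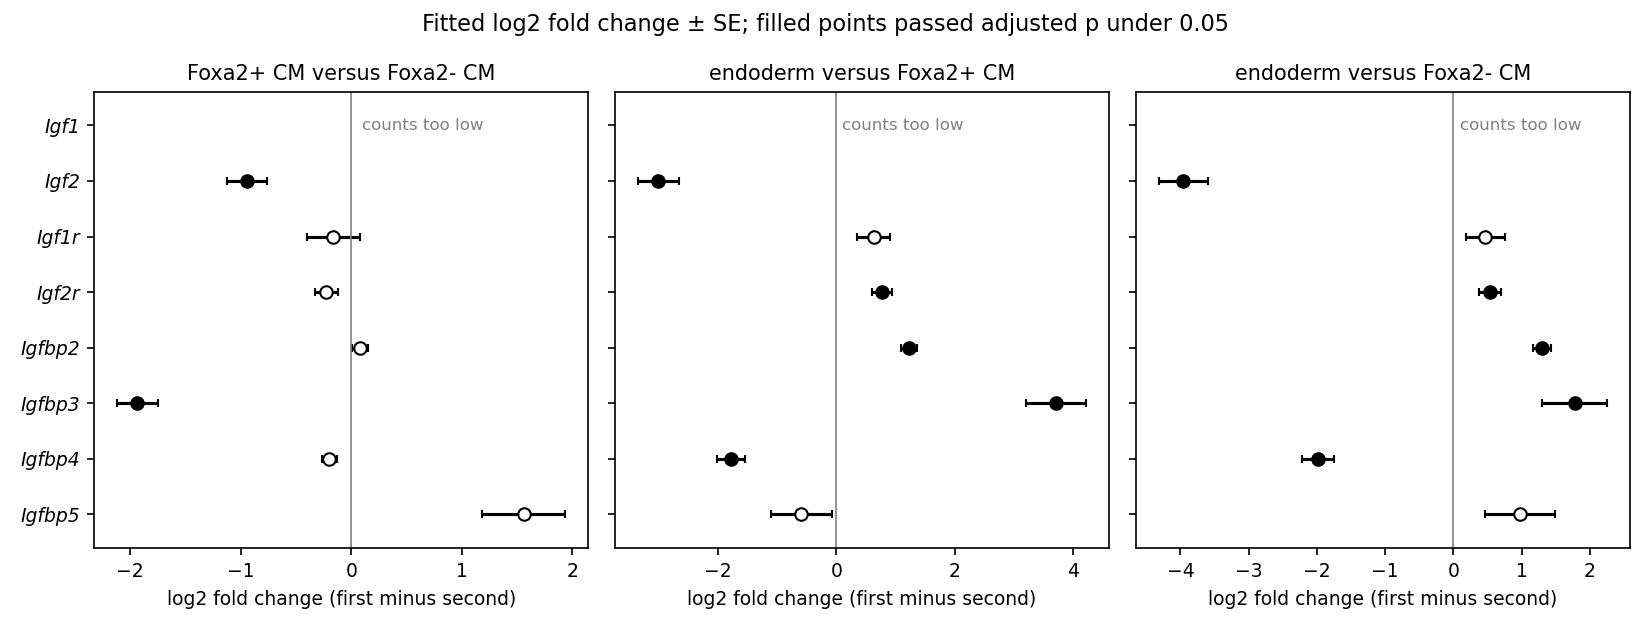
Fitted log2 fold change ± SE (horizontal axes) of the members (rows) in the 3 tested comparisons, first group minus second. Filled points passed an adjusted p of 0.05 in edgeR: Igf2 and Igfbp3 between the CM groups (-0.95 and -1.94), and Igf2, Igf2r, Igfbp2, Igfbp3 and Igfbp4 in both endoderm comparisons. Igf1 is left out, its counts being too low in these groups.

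Per exonic length, in reads per kilobase of exon scaled to library size (RPKM), the leading member differed between groups. In Foxa2+ CM it was Igfbp4 with 34.4 ± 1.19 (SD, n = 3), above Igfbp2 at 30.1 without overlap of the samples, and Igfbp2, Igf2 (24.1) and Igf2r (16.0) overlapped in range from each to the next. In Foxa2- CM, Igf2 at 46.5 ± 6.39 (SD, n = 3) and Igfbp4 at 39.5 led and overlapped in range. In endoderm Igfbp2 led with 70.5 ± 7.71 (SD, n = 2), followed by Igfbp3 (33.6) and Igf2r (27.4), which overlapped, and Igf2 was the last but one with 2.96. In Flk1+ high cells Igf2 at 63.8 ± 7.47 (SD, n = 2) was above Igfbp4 at 47.0 without overlap. Igf1 had the lowest mean RPKM of the 8 in every group, with 2.60 in Flk1+ high cells. The authors removed duplicate reads, which limits the counts of strongly expressed genes, and the members nearest that limit were Igf2, Igfbp2 and Igfbp4, with up to 0.934, 0.909 and 0.788 counts per exonic base.

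**Figure D4:**
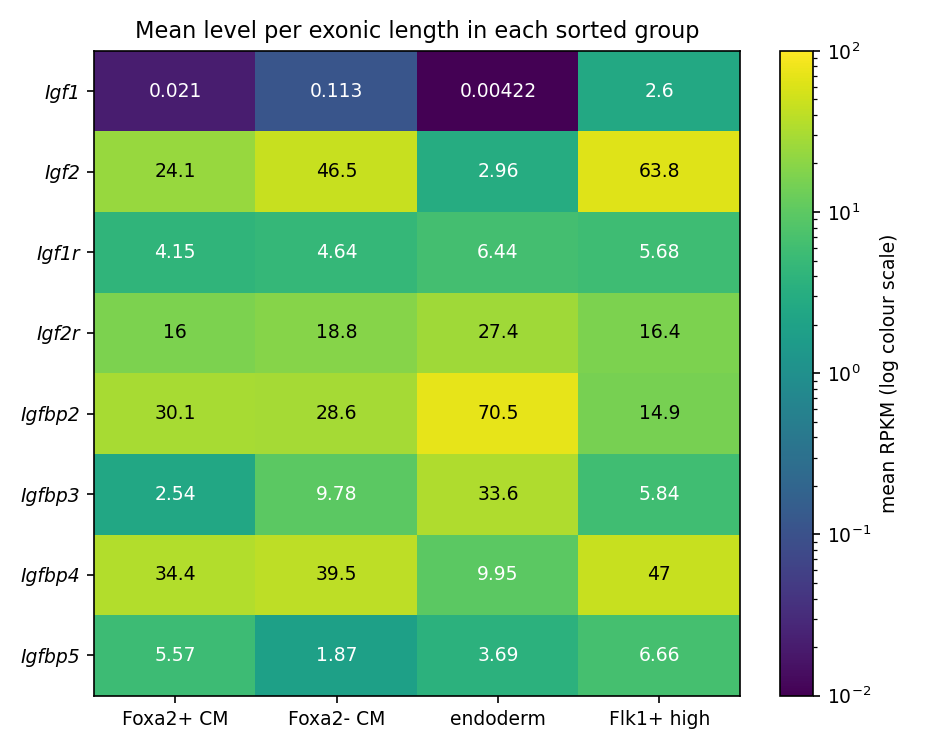
Mean RPKM of each member (rows) in each sorted group (columns), printed in the cells and coloured on a log scale. Igfbp2 leads in endoderm with 70.5, Igf2 in Foxa2- CM and Flk1+ high cells with 46.5 and 63.8, and Igf1 is lowest in each column.

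Described without a test, the other members in Flk1+ high cells differed less than Igf1. Since Igf1 was chosen on its rise there, that order is not a separate result. The fitted log2 differences from Foxa2+ CM were 1.40 for Igf2, 1.18 for Igfbp3, 0.45 for Igf1r and for Igfbp4, 0.26 for Igfbp5, 0.04 for Igf2r and -1.02 for Igfbp2. From Foxa2- CM they were 0.46 for Igf2, -0.76 for Igfbp3, 0.29 for Igf1r, 0.25 for Igfbp4, 1.82 for Igfbp5, -0.19 for Igf2r and -0.95 for Igfbp2. Igfbp2 was thus the member lower in Flk1+ high cells than in every sample of the other groups.

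The rest of the pathway was followed through 51 further genes in 7 lists. Between the CM groups 44 could be tested, of which 2 were higher and 2 lower in Foxa2+ CM, with a median log2 difference of 0.009. In endoderm 45 could be tested, of which 7 were higher and 6 lower against Foxa2+ CM, and 10 higher and 6 lower against Foxa2- CM, with median log2 differences of -0.007 and 0.005 beside 0.007 and 0.005 over all genes. The percentages of all genes called in these comparisons are given above. In the contrasts the set was chosen on, from which nothing is read, the same model called 13 higher and 5 lower against Foxa2+ CM, where 11.6% and 11.2% of all genes were called, and 9 higher and 6 lower against Foxa2- CM, where 11.3% and 10.3% were called.

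Among the other binding and carrier proteins (5 genes), Igfbp1 was at 0 counts in every library, as were the insulin genes Ins1 and Ins2, and Igfbp6 and Igfbp7 did not exceed 0.279 CPM. Igfbpl1 was at 3.83 to 7.89 CPM in Foxa2+ CM and at 5.69 to 16.3 CPM in Foxa2- CM. It was at 2.79 and 5.60 CPM in endoderm and at 2.82 and 0.315 CPM in Flk1+ high cells. No gene of this list was called between the CM groups. Igfals, the acid-labile subunit that stabilises IGF complexes in blood, was at 2.05 and 2.42 CPM in endoderm and at most 0.371 CPM elsewhere (log2 4.11 over Foxa2+ CM, adjusted p = 0.000906, edgeR). It was low even where it was highest.

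Among the proteases that cut binding proteins and their inhibitors (5 genes), Htra1 fell in Foxa2+ CM. It was at 0.657, 0.694 and 1.30 CPM there and at 2.78, 3.65 and 8.23 CPM in Foxa2- CM (log2 -2.46 ± 0.49 SE, adjusted p = 0.0267, edgeR). Pappa, which encodes PAPP-A, the protease of IGFBP4, was at 14.9 and 14.5 CPM in endoderm against 2.78, 3.33 and 5.19 CPM in Foxa2- CM (log2 1.96, adjusted p = 0.00244, edgeR). Against Foxa2+ CM, with 9.49, 11.2 and 5.63 CPM, its difference of 0.75 on the log2 scale did not pass (adjusted p = 0.112, edgeR). Its inhibitor Stc1 was lower in endoderm than in Foxa2+ CM (log2 -1.83, adjusted p = 0.000433, edgeR) and than in Foxa2- CM (log2 -1.38, adjusted p = 0.00225, edgeR). Flk1+ high cells were also low in Stc1, at 9.90 and 7.79 CPM against 14.0 to 28.2 CPM over the CM samples.

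Of the insulin receptors, Insrr, an orphan relative, was 8.21-fold lower in endoderm than in Foxa2+ CM (adjusted p = 0.0059, edgeR), at 0.838 and 1.00 CPM. The low level was not particular to endoderm, since Flk1+ high cells held 0.0627 and 0.708 CPM of Insrr. Insr, the insulin receptor gene, was at 131 to 235 CPM over all samples. Of the 7 docking proteins and adaptors, only Irs4 passed in a comparison of endoderm with CM. Irs4 was at 185 and 356 CPM in endoderm and at 1.13 to 5.92 CPM in the other 8 samples, 91.3-fold above Foxa2+ CM (log2 6.51 ± 0.44 SE, adjusted p = 1.1e-05, edgeR). Irs1 and Irs2, the widely used docking proteins, did not pass between endoderm and either CM group.

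Of the 17 PI3K-Akt genes, the regulatory subunits Pik3r1 and Pik3r3 were raised in Foxa2+ CM over Foxa2- CM (log2 0.72 for each, adjusted p = 0.0036 and 0.0195, edgeR). Pik3r1 was at 200, 217 and 189 CPM in Foxa2+ CM, against 115, 122 and 132 CPM in Foxa2- CM, without overlap. In endoderm the catalytic subunit gene Pik3cb (log2 2.49 over Foxa2+ CM, adjusted p = 4.5e-05, edgeR) and Foxo1, a transcription factor that Akt holds out of the nucleus (log2 2.16, adjusted p = 3.8e-05, edgeR), were higher. Foxo1 was at 115 and 104 CPM in endoderm against 22.9, 29.5 and 21.02 CPM in Foxa2+ CM. A level above CM was not particular to endoderm. Flk1+ high cells held 49.0 and 74.7 CPM of Foxo1, against 19.5 to 29.5 CPM over the CM samples. They held 25.9 and 19.4 CPM of Pik3cb, against 10.2 to 16.5 CPM over the CM samples.

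Of the 8 regulators of Igf2 RNA and its locus, Hmga2, a chromatin protein known to promote Igf2bp2 expression, fell in Foxa2+ CM from 205, 239 and 194 CPM in Foxa2- CM to 162, 147 and 153 CPM (log2 -0.46 ± 0.09 SE, adjusted p = 0.0201, edgeR). Hmga2 was also below Foxa2- CM in endoderm (158 and 130 CPM) and in Flk1+ high cells (179 and 167 CPM). Igf2bp2 was not called between the CM groups, at 166, 178 and 222 CPM in Foxa2+ CM and 166, 193 and 234 CPM in Foxa2- CM. Lin28a and Igf2bp3, RNA-binding proteins, were higher in both endoderm samples than in every CM sample. Their fitted differences were at most 0.34 on the log2 scale. In this list, 1 gene was called higher and 1 lower in endoderm against Foxa2+ CM, and 2 higher and 2 lower against Foxa2- CM. Of the 5 genes of growth hormone input, which drives Igf1 in the liver, Socs2, a feedback inhibitor, was 13.1-fold higher in endoderm than in Foxa2+ CM (log2 3.71, adjusted p = 0.00067, edgeR). Stat5a and Jak2 were lower in endoderm than in Foxa2+ CM (log2 -1.56 and -1.15, adjusted p = 0.0307 and 0.000711, edgeR). In Flk1+ high cells, given as values alone, Stat5a was at 54.3 and 40.1 CPM against 4.52 to 16.0 CPM over the CM samples, and Stat5b, named after its values were seen, was at 168 and 193 CPM against 25.4 to 74.5 CPM. Replicate 3 was the highest of each CM group in both genes. The rest of that list overlapped with CM there, with Ghr at 31.1 and 20.1 CPM against 17.2 to 33.8 CPM, Jak2 at 78.3 and 95.6 against 76.1 to 116 CPM, and Socs2 at 120 and 33.8 against 6.72 to 36.6 CPM.

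**Figure D5:**
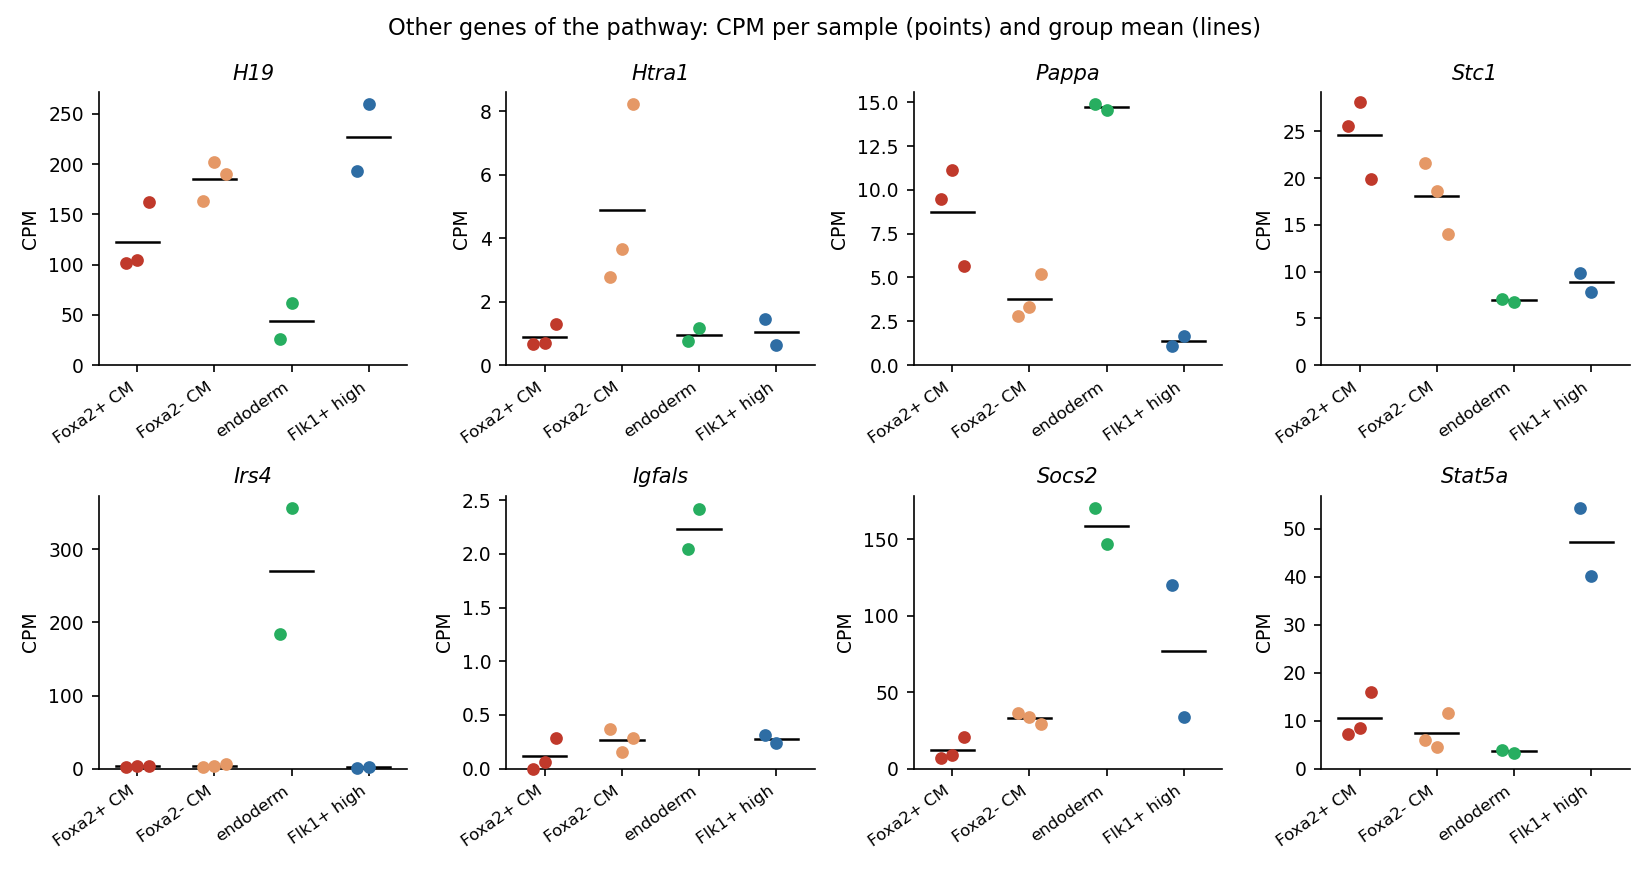
CPM of 8 other genes of the pathway (vertical axes, linear and different for each gene) in the samples of the 4 sorted groups (horizontal axes), with points for samples and lines for group means. Irs4 is at 185 and 356 CPM in endoderm and near 0 elsewhere, H19 is lowest in endoderm, Htra1 is highest in Foxa2- CM and Stat5a is highest in Flk1+ high cells.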

How the data were processed

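RNAseq of 10 sorted samples was analysed, with groups and replicate numbers taken from the sample labels; day and Activin A doses come from the study's methods. The authors made unstranded TruSeq libraries, aligned 50 nt single reads to mm10 with STAR (2.5.0a), removed duplicates with Picard and counted reads with HTSeq (0.6.0). The deposited values are raw, whole-number counts per Ensembl gene. The annotation version and strand setting of the counting are not given in the sources used here.

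The members and the lists of pathway and marker genes were chosen with earlier results of these data known. Identifiers were matched without their version to GENCODE M21 (37607 of 38924), which gave symbols, positions and exonic lengths. With edgeR (4.0.16, R 4.3.3), genes were kept by filterByExpr (15284 in 6 samples, 16180 in 10), scaled by TMM and tested by the quasi-likelihood test with Benjamini-Hochberg adjustment over all genes tested, at 0.05. The CM comparison used the 6 CM samples, and endoderm comparisons a model of all 10. The SE was derived from the fitted change and its F statistic and adds nothing beyond the p-value. CPM and RPKM used TMM library sizes, and log2 CPM had a prior count of 2. The genes named were the 8 members, of each pathway list up to 4 genes called in a tested comparison, and for Igf1 and each called member the 3 genes of most similar pattern among genes averaging 50 counts or more. Other settings tried were DESeq2 (1.42.0), its size factors, no filter, a 2-fold limit, other samples in the fit, a replicate block and leaving out each sample. The scripts were tested on simulated data. Promoters were read from a RefSeq table (GRCm38.p6) and figures made with matplotlib 3.10.9.

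Depth was 10926284 to 17470126 counts on genes, 72.2% to 80.5% of uniquely aligned reads, and intervals on counts cover counting error only. Replicate pairs differed by more than sampling noise (chi-square over its degrees of freedom 4 to 23.6). The labels do not say that replicates came from separate cultures, so p-values measure only the spread between these samples, which may be technical. Deviations from the group means correlated between the CM samples of each number at 0.447, 0.075 and 0.539. This was not taken as a pairing, so the main CM test does not allow for it.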

Additional observations from a re-analysis of the deposited data

How the results depend on the processing

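Between the CM groups, 2 of the 8 members were called, against 1 with a limit of 2-fold, 1 to 3 when a sample was left out and 3 without replicate 3 of both groups, a setting chosen after seeing the data. With all 10 samples in the model, edgeR called 0 (3 at an unadjusted p under 0.05) and DESeq2 called 2. Over all genes, 990 were called, against 460 at 2-fold, 288 with 10 samples, 234 to 1701 when a sample was left out and 2632 without replicate 3 of both groups. The log2 difference of Igf1r ran from -0.35 to 0.11 when a sample was left out, and its sign turned without Foxa2+ CM replicate 1 (0.03) and without Foxa2- CM replicate 3.

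In endoderm against Foxa2- CM, the 5 members called became 3 in each fit that left out a sample (lowest and highest both 3) and without replicate 3 of both CM groups, since Igf2r and Igfbp3 no longer passed. Igfbp5 there ran from -0.11, without endoderm replicate 2, to 1.54. Where 1 endoderm sample is left, it is assumed to vary like the other groups. Over all genes, 4875 called became 2748 at 2-fold and 3015 without endoderm replicate 1. Against Foxa2+ CM, 5660 became 3032 and 3601, and the 5 members stayed called when a sample was left out.

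The replicate number as a block is a number shared by samples, not a known pairing. With this replicate block 4 members (Igf2r and Igfbp5 added) and 2556 genes were called between the CM groups, Igf1 in endoderm against Foxa2+ CM turned to 0.54, and the Igf1 difference of Flk1+ high cells became 9.51 from Foxa2+ CM and 7.24 from Foxa2- CM. The cause was not tested.

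Leaving out a sample gave Igf1 differences of 5.73 to 8.47 (Flk1+ high over Foxa2+ CM), 3.35 to 7.83 (over Foxa2- CM) and -7.90 to -11.58 (endoderm over Flk1+ high, -8.94 with all samples). Like the values with the block, these ranges describe the values that chose the gene and test nothing. The order of members by RPKM did not change without TMM. Depth limits Igf1 outside Flk1+ high cells, where most libraries held under 3 counts.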

Other observations

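Grb10, an imprinted adaptor gene that restrains IGF and insulin receptors, was named after its values were seen. It was at 38.9, 43.9 and 4.06 CPM in Foxa2+ CM and at 43.8, 43.7 and 7.38 CPM in Foxa2- CM, so replicate 3 was the lowest sample of each CM group. Endoderm held 34.9 and 88.2 CPM and Flk1+ high cells 22.6 and 12.7 CPM. Pappa2, the relative of PAPP-A that cuts other binding proteins, did not exceed 0.309 CPM in any sample, so Pappa was the more abundant of the pair in every sample.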
